A study of Danio rerio with 9 samples.

Results

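The genes described here carry out and time DNA replication and cell division in the zebrafish embryo. They were taken by gene symbol, as the mcm, orc, gins, rfc, rrm, pol, pcna, cdc, ccn, cdk, aurk, plk and bub families, leaving out ccna1. This gave 104 genes with 225 probes among 12858 genes with a symbol on the array. Whole Tuebingen embryos had been injected with mRNA for Hif-1a, for Hif-3a or for green fluorescent protein (GFP, the control), and their RNA was measured 12 h after fertilization. Hif-1a and Hif-3a are alpha subunits of the hypoxia-inducible factor, which turns on genes when oxygen is low, and the study asked what transcriptional response each gives. Each group held 3 single-colour arrays, each from the pooled RNA of 60 embryos, and the replicates came from 3 independent microinjection experiments, so p-values here measure the spread between pools of embryos. The injected mRNA is not restricted to a tissue by a promoter, and the labels give no dose.

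Before a cell copies its genome, the origin recognition complex (the Orc proteins) and Cdc6 mark replication origins and load the Mcm2-7 helicase. At the start of S phase the helicase is switched on together with Cdc45 and GINS, the polymerases copy the strands, RFC loads the PCNA clamp that holds them on DNA, and ribonucleotide reductase makes the deoxynucleotides. Mitosis is driven by Cdk1 with cyclins A and B, by the Aurora and Polo kinases, and by the anaphase-promoting complex with Cdc20, while cyclins D and E with Cdk2, Cdk4 and Cdk6 act in G1. Early zebrafish embryos divide on stored maternal products, and by the stage of somite formation their own transcripts supply the cycle.

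Levels are log2 signals relative to the 75th percentile of the array, so a level of 0 lies at that percentile and a positive difference means a higher level in the group named first. A gene is said to have risen or fallen where limma's adjusted p was under 0.05 over all 19551 genes and transcripts tested. Of the 104 genes 97 were measured, meaning that in some group every array showed the probe well above background. The 7 others were ccnd2b, cdc25d, cdk5r1a, cdk5r1b, cdk5r2a, cdk5r2b and gins1. By role the 97 comprised 35 S phase genes, 20 mitosis genes, 8 G1 cyclins and kinases, 12 other CDK genes and 22 others, which mostly match by symbol alone, such as cdc42 and its partners. No probe was matched to bub1 or pola1, and the gene now called rrm2l, listed with the synonym rrm2, stands in the S phase group.

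The share of probes well above background was 67.7% to 75.3%, and arrays correlated at 0.963 to 0.988. Before scaling, the 75th percentile of signal was 500 to 611 on the Hif-1 arrays, 609 to 785 on the Hif-3 arrays and 766 to 822 on the GFP control arrays, so the Hif-1 arrays were dimmer. Hif-3 replicate 1 stood apart with 437 outlier spots, where the other arrays had 3 to 24, and rrm1, gins4, ccnb2, ccnd1, cdc34a and cdc123 have no value on it. The injected Hif-3a was visible: of 4 probes of hif1al, also known as Hif-3alpha, 3 were 5.85 to 8.49 log2 units higher in Hif-3 than in GFP control embryos. Arrays were scanned on 4 days, and the 1 day that held all groups had Hif-1 replicate 2, Hif-3 replicates 2 and 3, and GFP control replicates 2 and 3. Hif-1 replicates 1 and 3 shared a slide and a scan day that held no other array. For them group, slide and day cannot be told apart. GFP control replicate 1 and Hif-3 replicate 1 were each alone on their slide and day. The array number limits the precision of every value, and the median standard error of a difference was 0.19.

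Most genes of the replication machinery had lower levels in Hif-1 embryos than in GFP controls, though with the scan day as a block 0 members passed. Of the 97 genes 12 fell and 3 rose, where 3.77% of all genes tested fell and 5.73% rose. The 35 S phase genes held 9 of those that fell and 0 of those that rose, and 32 had a difference below 0. So did 15 of the 20 mitosis genes and 51.0% of all genes tested, so a difference below 0 was not particular to S phase genes. Their median difference was -0.42, against -0.25 for the 20 mitosis genes and -0.01 for all genes tested. With the replicate number, which pairs the arrays, as a block 25 of the 97 fell, 15 of them S phase genes, and 5 rose, where 10.9% of all genes fell and 11.7% rose. In bulk RNA of whole embryos fewer cells in S phase and less RNA per cell cannot be told apart.

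The gene with the smallest p was rrm1, the large subunit of ribonucleotide reductase, which makes deoxynucleotides for DNA synthesis. Its level was 4.24, 4.20 and 4.12 in Hif-1 embryos and 5.44, 5.03 and 5.55 in GFP control embryos. All the Hif-1 arrays lay below every control array, and the Hif-1 arrays spread far less. rrm1 fell by 1.15 ± 0.16 (SE, n = 3 each; adjusted p = 0.0117), to 44.9% of the control level. Its other 2 probes fell by 1.15 and 1.59, and it was the only member that passed whichever of the 9 arrays was left out (adjusted p up to 0.0450). The other reductase gene, rrm2l, differed by -0.41 ± 0.20 with overlapping groups (adjusted p = 0.220), and its 6 probes differed by -0.59 to -0.27.

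**Figure D1:**
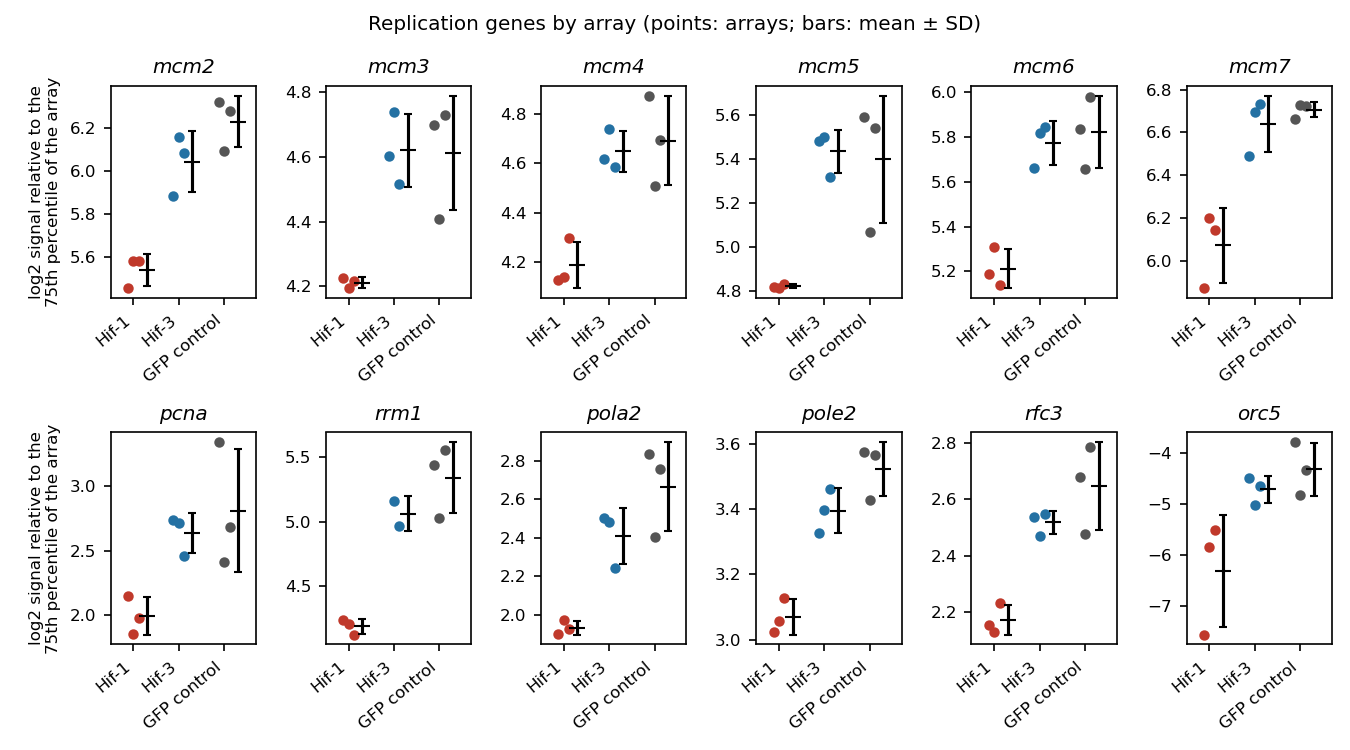
Levels of 12 S phase genes on each array, as log2 signal relative to the array's 75th percentile (points, replicates from left to right), with the mean ± SD of each group; each panel has its own scale, and rrm1 has 2 Hif-3 values. In each panel the Hif-1 arrays lie below all GFP control arrays, and the Hif-3 arrays overlap them.

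The 6 subunits of the Mcm2-7 helicase, which unwinds DNA at the fork, were all below the controls in Hif-1 embryos, by 0.40 to 0.69. The level of mcm2 was 5.46, 5.58 and 5.58 in Hif-1 embryos and 6.32, 6.09 and 6.28 in GFP control embryos. For mcm7 the levels were 5.87, 6.20 and 6.14 in Hif-1 embryos against 6.66, 6.73 and 6.72 in GFP controls. No Hif-1 array reached a control array for any of the 6 genes. mcm2 fell by 0.69 ± 0.12 (adjusted p = 0.0179), mcm7 by 0.64 ± 0.13 (0.0251), mcm6 by 0.61 ± 0.13 (0.0258) and mcm4 by 0.50 ± 0.13 (0.0475). mcm5 differed by -0.58 ± 0.15 and mcm3 by -0.40 ± 0.13, and they missed the threshold (adjusted p = 0.0528 and 0.0844). The 4 mcm5 probes differed by -0.67 to -0.56 and the second probes of mcm2 and mcm6 by -1.16 and -1.03, whereas 1 of the 4 mcm7 probes was at 0.05.

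Averaged over the 6 helicase genes and set against each gene's control mean, the level was -0.63, -0.54 and -0.54 on the Hif-1 arrays, -0.12, 0.03 and -0.06 on the Hif-3 arrays and 0.09, -0.17 and 0.08 on the GFP control arrays. The Hif-1 arrays stood below all others by more than the arrays of any group differed among themselves. Hif-3 minus Hif-1 was 0.41 to 0.61 for the 6 genes, and none passed (adjusted p = 0.0854 to 0.150).

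mcm5 shows where the spread lay. Its level was 4.82, 4.81 and 4.83 in Hif-1 embryos, and 5.59, 5.07 and 5.54 in GFP control embryos. The Hif-1 arrays were nearly equal, while GFP control replicate 2 stood closer to them than to the other controls. Without that control array mcm5 passed (adjusted p = 0.0137). With the replicate number as a block mcm5 also passed (adjusted p = 0.0378), and mcm3 did not (0.0633).

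Genes named mcm3l and mcm6l, whose synonyms MCM3m and MCM6m are those of maternal forms known in Xenopus, were not tested against the other Mcm genes. mcm3l stood at -1.02, -1.93 and -1.64 in Hif-1 embryos and at -2.13, -2.25 and -2.17 in GFP control embryos. It was higher on every Hif-1 array than on any control array, most of all on Hif-1 replicate 1. The difference of 0.65 ± 0.25 missed the threshold (adjusted p = 0.130), and it passed with the replicate number as a block (0.0451) and for its other probe (1.09, adjusted p = 0.0209 over probes). Without Hif-1 replicate 1 the mcm3l difference was 0.40, and within the scan day that held all groups it was 0.28. mcm6l differed by -0.07 ± 0.30 (adjusted p = 0.911), a standard error too wide to set it apart from the other Mcm genes.

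Of the clamp and its loader, pcna stood at 2.15, 1.86 and 1.98 in Hif-1 embryos and 3.34, 2.41 and 2.68 in GFP control embryos. The groups did not overlap, but the controls spread widely, with GFP control replicate 1 far above the others. pcna was 0.82 ± 0.23 lower (adjusted p = 0.0618), and passed with the replicate number as a block (0.0252); its other probe passed on its own, at -1.03 (adjusted p = 0.0118 over probes). The clamp loader subunit rfc3 fell by 0.47 ± 0.12 (adjusted p = 0.0430), and the 5 rfc genes differed by -0.54 to -0.29, of which rfc3 alone passed. The large subunit rfc1 differed by -0.52 ± 0.15 (adjusted p = 0.0619).

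Among polymerase subunits, pola2, the regulatory subunit of the polymerase that primes DNA strands, stood at 1.90, 1.97 and 1.93 in Hif-1 embryos and at 2.84, 2.40 and 2.76 in GFP control embryos. Every Hif-1 array was below every control array. pola2 fell by 0.73 ± 0.15 (adjusted p = 0.0233), to 60.2% of the control level. pole2, a subunit of the leading strand polymerase, fell by 0.45 ± 0.11 (adjusted p = 0.0380), and its other 2 probes differed by -0.47 and -0.10. The 6 measured subunits differed by -0.73 to -0.17.

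The 6 orc genes, which mark origins, differed by -1.99 to -0.25 in Hif-1 embryos, and only orc5 passed. orc5 stood at -7.56, -5.84 and -5.52 in Hif-1 embryos and at -3.78, -4.82 and -4.33 in GFP control embryos. These are dim signals, with orc5 well above background on 2 of 3 Hif-1 arrays, and Hif-1 replicate 1 was far below the others. The difference was -1.99 ± 0.51 (adjusted p = 0.0455), and without Hif-1 replicate 1 it was -1.37. Since orc5 was kept only through the groups where it is higher, its fall is no support for the count: without genes dim on any array, 8 of 34 S phase genes and 11 of 94 members fell. orc1 differed by -0.25 ± 0.15 (adjusted p = 0.306). With the replicate number as a block orc2, orc3 and orc6 also passed, at -0.76, -0.58 and -0.54; rfc4 did so at -0.38. These genes, like rfc1, mcm3l and mcm6l, were named after their values were seen.

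Other S phase genes did not pass. cdc6, which loads the helicase, stood at 3.06, 2.77 and 2.78 in Hif-1 embryos and 3.16, 3.07 and 2.87 in GFP control embryos, and the groups overlapped. It differed by -0.16 ± 0.14 (adjusted p = 0.489). cdc45, a partner of the active helicase, differed by -0.01 ± 0.13 (adjusted p = 0.953), and gins2 by -0.34 ± 0.18 (adjusted p = 0.241). The 3 measured GINS genes, none past the threshold, ranged from -0.40 to 0.07. Over cdc6, cdc7, cdc45 and mcm10 the median was -0.09, against -0.59 over mcm2 to mcm7. The 4 genes ranged from -0.39, for mcm10, to 0.05. Dimmer second probes of mcm10 and cdc45 differed by 0.56 and 0.30, and that of cdc6 by -0.09. The difference between the families was not tested.

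**Figure D2:**
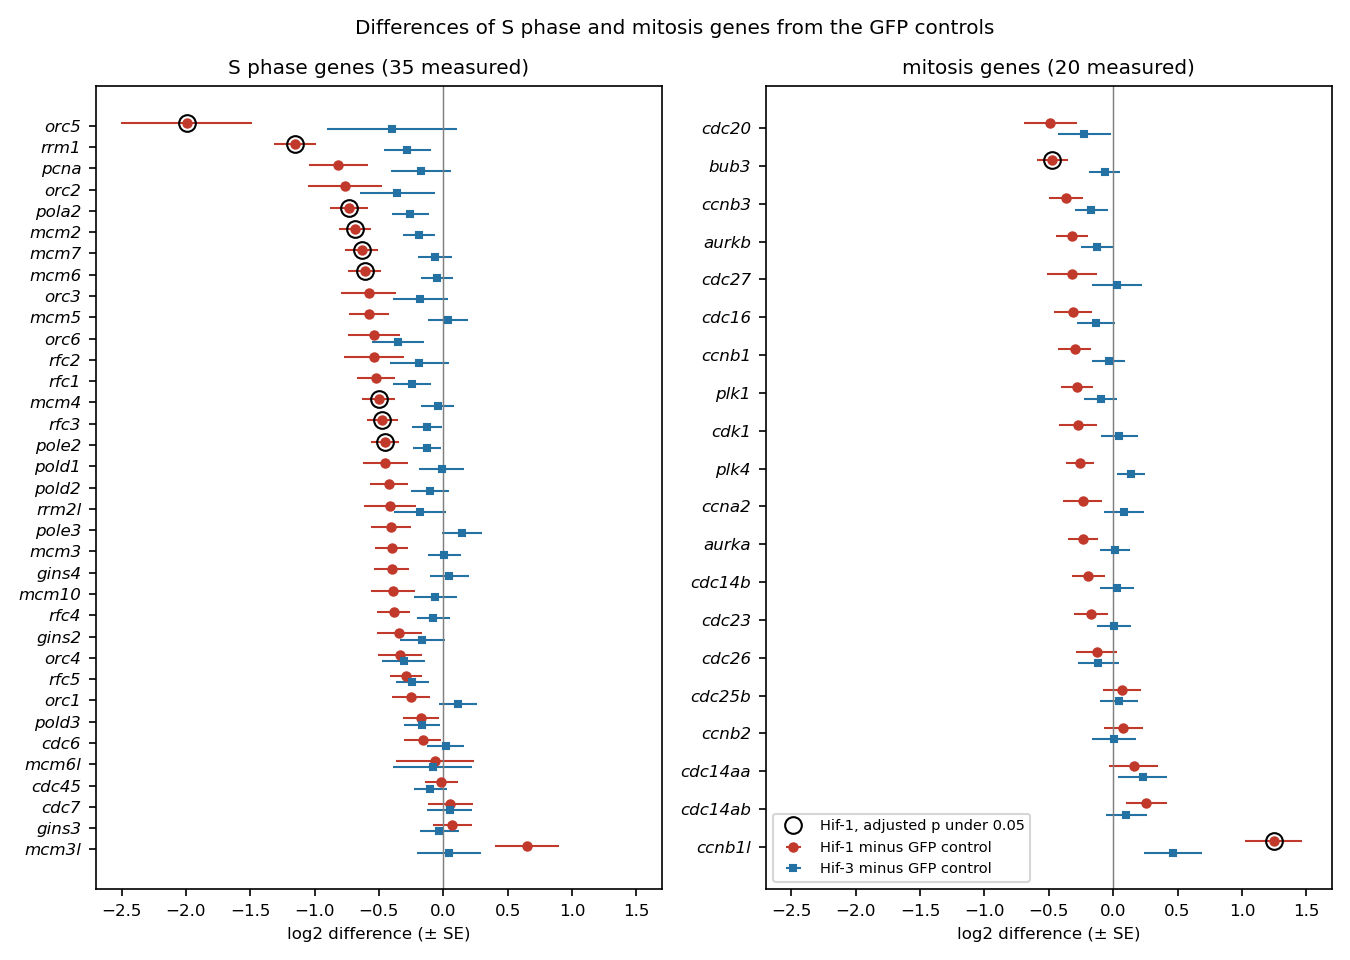
Log2 differences from the GFP controls (± SE) of the 35 S phase genes and the 20 mitosis genes, for Hif-1 (red circles) and Hif-3 (blue squares); ringed points are those where Hif-1 passed. Of the S phase genes 32 lie below 0 for Hif-1 and 9 are ringed, and of the 20 mitosis genes 15 lie below 0. The Hif-3 values of the S phase genes lie between -0.40 and 0.14 with none past the threshold. For rrm1, gins4 and ccnb2 there are 2 Hif-3 arrays.

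The arrays of the 2 groups did not overlap for 23 of the 35 S phase genes with Hif-1 lower and for 1 with Hif-1 higher, mcm3l. Over all genes tested 16.8% were separated with Hif-1 lower and 17.2% with Hif-1 higher. Of the 20 mitosis genes 8 were separated with Hif-1 lower and 1 with Hif-1 higher.

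Mitosis genes were lower by less, and 1 of 20 fell, near the 3.77% of all genes that fell. bub3, a protein of the spindle checkpoint, stood at 2.76, 2.79 and 2.59 in Hif-1 embryos and 3.32, 3.04 and 3.20 in GFP control embryos. The groups did not overlap, and bub3 fell by 0.47 ± 0.12 (adjusted p = 0.0448). The mitotic kinase cdk1 stood at 2.61, 2.50 and 2.27 in Hif-1 embryos and 2.90, 2.60 and 2.71 in GFP control embryos, an overlapping pair of groups, and differed by -0.27 ± 0.14 (adjusted p = 0.253). Its partners ccnb1 and ccna2 differed by -0.30 ± 0.13 (0.170) and -0.24 ± 0.15 (0.347).

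The Aurora kinases aurka and aurkb differed by -0.23 ± 0.12 (adjusted p = 0.227) and -0.32 ± 0.12 (0.134), and the Polo kinase plk1 by -0.28 ± 0.13 (0.188). cdc20, which activates the anaphase-promoting complex, differed by -0.49 ± 0.20 (0.161). None of these 4 passed, and all were below 0 on the probe used. The other aurka probes, which are dimmer, differed by 0.20 and 0.19, while the other probes of plk1 and cdc20 were below 0. ccnb3, a B-type cyclin, differed by -0.37 ± 0.13 (0.110) and passed with the replicate number as a block (0.0420).

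The 5 genes of the anaphase-promoting complex group, which end mitosis by marking cyclins and securin for destruction, differed by -0.49 to -0.13 and none passed (adjusted p = 0.161 to 0.638). The 5 mitotic kinases differed by -0.32 to -0.23, also with none past the threshold (adjusted p = 0.134 to 0.253). The 4 cdc14 and cdc25 phosphatase genes, which remove phosphates from CDK targets or from CDKs, differed by -0.19 to 0.26, and 1 of the 4 was below 0.

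A mitosis gene by symbol, the cyclin B1-like ccnb1l, rose. It stood at -3.27, -3.30 and -3.73 in Hif-1 embryos and at -4.69, -4.67 and -4.69 in GFP control embryos. The controls were nearly equal and all Hif-1 arrays were above them. The rise was 1.25 ± 0.22 (adjusted p = 0.0175), 2.37-fold. On this dim probe the difference for ccnb1l, Hif-1 against GFP control, was -0.01 (adjusted p = 0.997) with a normexp background and the 75th percentile, and 0.41 (0.0292) with a normexp background and quantile normalization.

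The contrast of S phase and mitosis can be read array by array, as the mean level of the genes with a value on all arrays, from the mean of the controls. Over 33 S phase genes the mean was -0.40, -0.46 and -0.42 on the Hif-1 arrays, -0.05, -0.13 and -0.17 on the Hif-3 arrays and 0.13, -0.18 and 0.05 on the GFP control arrays. Over 19 mitosis genes it was -0.05, -0.17 and -0.19 on the Hif-1 arrays, 0.07, -0.04 and 0.01 on the Hif-3 arrays, and 0.02, -0.01 and -0.01 on the GFP control arrays. The Hif-1 arrays were lowest in each list. The S phase mean minus the mitosis mean was -0.35, -0.29 and -0.23 on the Hif-1 arrays, -0.12, -0.09 and -0.18 on the Hif-3 arrays, and 0.12, -0.18 and 0.06 on the GFP control arrays. By this measure all Hif-1 arrays were below every control array, and Hif-3 overlapped the controls. The mitosis mean holds the dim probe of ccnb1l, 1.25 higher with Hif-1, which widens the difference on the Hif-1 arrays. Hif-1 replicate 3, at -0.23, lay near GFP control replicate 2, at -0.18. With ccnb1l left out of the mitosis mean, Hif-1 replicate 3 no longer lies below GFP control replicate 2. The full separation of Hif-1 from the controls by this measure thus rests on that dim probe.

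The GFP controls differed among themselves in the S phase genes. GFP control replicate 2 was the lowest control array for 27 of 35 S phase genes (77.1%), for 7 of 20 mitosis genes and for 29.8% of all genes. Without it 21 of the 97 genes fell, against 12 with it. Leaving out GFP control replicate 1 or 3, or Hif-1 replicate 1 or 3, left 1 gene that fell, rrm1, leaving out Hif-1 replicate 2 left 4, and leaving out any Hif-3 array left 6. Over all genes, those that rose or fell numbered 1857 with all arrays, 2059 without GFP control replicate 2, 374 to 527 without GFP control replicate 1 or 3 or Hif-1 replicate 1 or 3, 980 without Hif-1 replicate 2, and 1121 to 1585 without a Hif-3 array. Within the scan day that held all groups, with 1 Hif-1 and 2 GFP control arrays, the S phase median was -0.42 and the mitosis median -0.23, and 0 of the 97 genes passed, as did 0 of all genes (limma, where the lone Hif-1 array is assumed to vary like the other groups). An unadjusted p under 0.05 was found there for 12 of the 97 (12.4%), against 11.6% of all genes. With the day as a block 0 of the 97 and 4 of all genes passed, and 11.3% of the 97 and 11.7% of all genes had an unadjusted p under 0.05. These shares do not set the 97 genes apart.

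The scale of the arrays moves these medians. Modelling the background with normexp and keeping the 75th percentile shifted the median of all genes to -0.20, with the S phase median at -0.29 and the mitosis median at -0.09, so that the mitosis median then lay above that of all genes. Centring on the median of each array put all genes at -0.12, S phase at -0.53 and mitosis at -0.36. S phase lay below mitosis in all 22 alternatives, by 0.16 to 0.27.

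**Figure D3:**
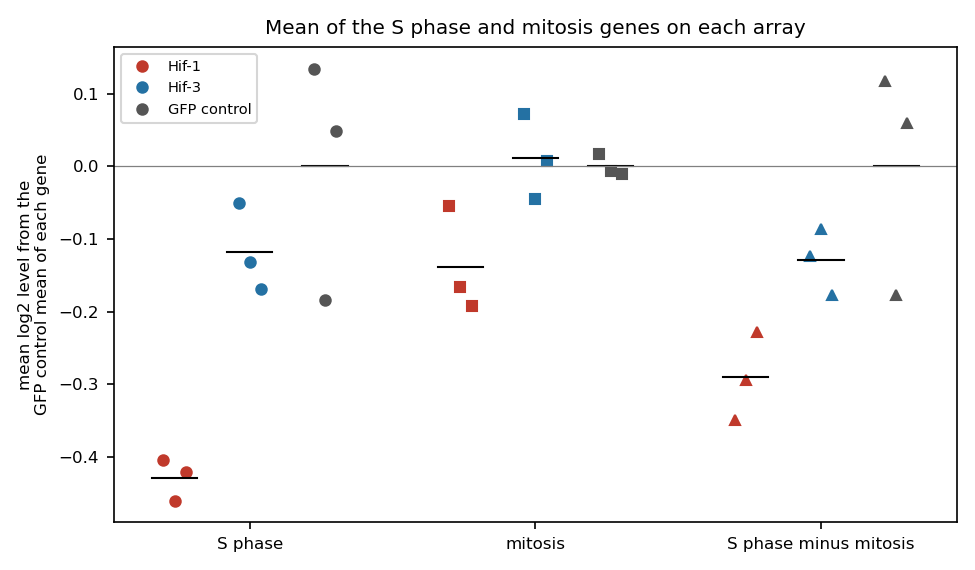
Mean log2 level of the S phase genes, the mitosis genes and their difference on each array, from each gene's GFP control mean (points, replicates from left to right; bars, group means). The Hif-1 arrays lie at -0.46 to -0.40 for S phase, and GFP control replicate 2, at -0.18, lies beside the Hif-3 arrays.

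In G1, the cyclin D gene ccnd3 rose and no member fell, where 5.73% of all genes rose and 3.77% fell. ccnd3 stood at -2.07, -2.25 and -2.58 in Hif-1 embryos and at -3.12, -3.08 and -3.18 in GFP control embryos, with no overlap. It rose by 0.83 ± 0.21 (adjusted p = 0.0434), while its other probe differed by 0.17 (0.746 over probes). The call of ccnd3 was fragile, and held in 1 of the 9 fits with an array left out. Nor did ccnd3 pass with quantile normalization, with centring on the array median or with the mean of its probes. ccne2, a cyclin E of the G1 to S transition, stood at -0.62, -1.31 and -1.03 in Hif-1 embryos and at 0.10, -0.53 and -0.21 in GFP control embryos. In each same-numbered pair the Hif-1 array was below the control array. The difference was -0.77 ± 0.23 (adjusted p = 0.0716), and it passed with the replicate number as a block (0.00574), the smallest blocked p of any member.

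Other G1 genes did not pass. ccne1 differed by -0.11 ± 0.19 (adjusted p = 0.751), ccnd1 by 0.29 ± 0.18 (0.336), cdk2 by -0.41 ± 0.17 (0.153) and cdk4 by -0.12 ± 0.18 (0.699). ccnd2a differed by -0.54 ± 0.31 (0.288), and passed with the replicate number as a block (0.0480). The median of the 8 genes was -0.14.

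Of the other CDK genes cdk8, a kinase of the Mediator complex of transcription, fell. It stood at 2.46, 2.42 and 2.30 in Hif-1 embryos and at 3.41, 2.87 and 3.39 in GFP control embryos. No arrays overlapped, and GFP control replicate 2 was the control nearest to the Hif-1 arrays. cdk8 fell by 0.83 ± 0.17 (adjusted p = 0.0233), to 56.3% of the control level. cdk10 differed by -0.33 ± 0.12 (0.106) and passed with the block (0.0407), cdk2ap2 by -0.31 ± 0.13 (0.169) and cdk17 by 0.30 ± 0.13 (0.167). The 12 genes ranged from -0.83 to 0.97 with a median of -0.04.

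In the remaining group the small GTPase cdc42, which controls cell polarity and the actin cytoskeleton, averaged 3.15 ± 0.06 in Hif-1 embryos and 3.74 ± 0.23 in GFP control embryos (SD, n = 3 each). It fell by 0.59 ± 0.14 (adjusted p = 0.0399). cdc42ep2, a Cdc42 effector, stood at -1.79, -2.07 and -2.52 in Hif-1 embryos and at -3.37, -3.23 and -3.42 in GFP control embryos. It rose by 1.21 ± 0.19 (0.0126), 2.31-fold, and its other probe by 1.12 (0.00639 over probes). The chaperone partner cdc37 differed by -0.49 ± 0.14 (0.0634). aurkaip1, a mitochondrial ribosome protein in human cells, differed by -0.66 ± 0.20 (0.0744). cdc37 and aurkaip1 passed with the block (0.0474 and 0.0211). The median of the 22 was -0.09.

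**Figure D4:**
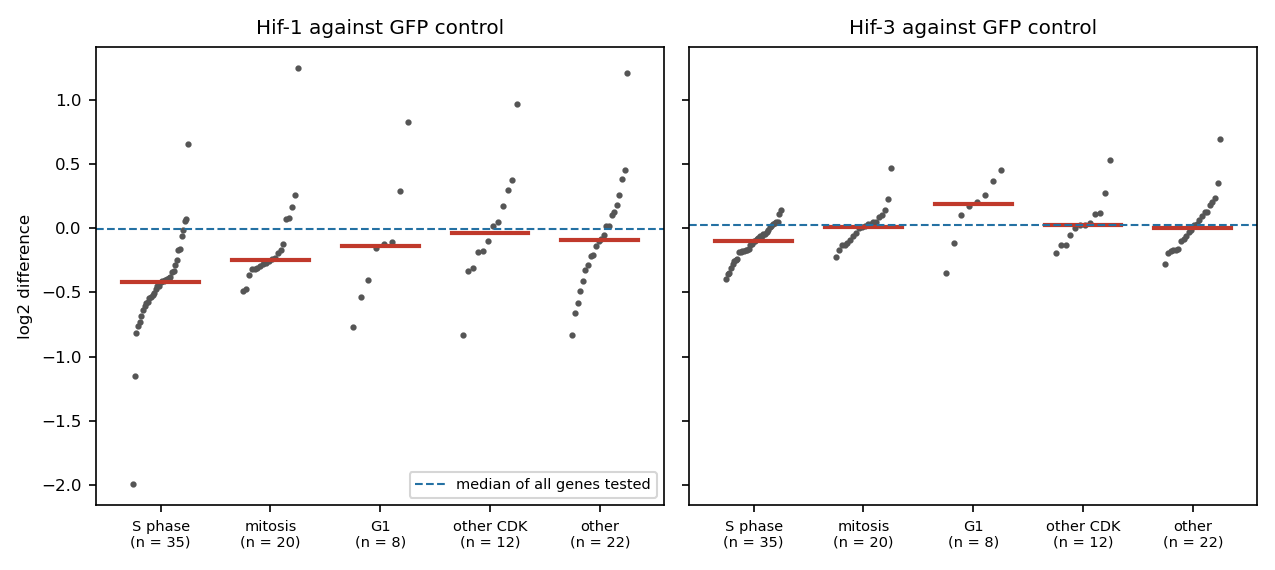
Log2 differences from the GFP controls by role for Hif-1 (left) and Hif-3 (right), 1 point per gene, with the median of each role (red bar) and the median of all genes tested (dashed). For Hif-1 the S phase median is -0.42 and the mitosis median -0.25, and for Hif-3 they are -0.10 and 0.01.

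Replication genes outside these families were described from lists chosen with earlier results known. Of 26 measured genes of a list of other replication genes 5 fell and 0 rose with Hif-1, with a median of -0.38. Over all genes 3.77% fell and 5.73% rose. With the replicate number as a block 13 of the 26 fell, where 10.9% of all genes did. rpa2, which coats single-stranded DNA, stood at 0.25, 0.33 and -0.05 in Hif-1 embryos and at 1.62, 0.92 and 0.92 in GFP control embryos, and fell by 0.98 ± 0.21 (adjusted p = 0.0281). Its arrays did not overlap. pole, the catalytic subunit of the leading strand polymerase, fell by 0.66 ± 0.13 (0.0219), dut, which removes dUTP from the nucleotide pool, by 1.02 ± 0.21 (0.0240), and tipin, a protector of the fork, by 0.94 ± 0.20 (0.0297). wdhd1, a fork scaffold named after its value was seen, fell by 0.63 ± 0.15 (0.0359).

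Of 39 other mitosis genes 36 had a difference below 0, against 51.0% of all genes, and the median was -0.18. Of the 39, 2 fell and 0 rose, near the 3.77% of all genes that fell. With the block, where 10.9% of all genes fell, 6 fell and 1 rose. Those that fell without the block were the condensin subunits smc2 (-0.68 ± 0.14, adjusted p = 0.0258) and smc4 (-0.45 ± 0.11, 0.0414; named after its value was seen), which compact chromosomes. Of 30 measured regulators and checkpoint genes 4 fell and 0 rose, with a median of -0.19, where 3.77% of all genes fell and 5.73% rose. With the block 5 fell and 2 rose, near the 10.9% and 11.7% of all genes. The checkpoint kinase chek2 stood at 0.61, 0.49 and 0.54 in Hif-1 embryos and at 1.78, 1.21 and 1.89 in GFP control embryos, and fell by 1.08 ± 0.18 (0.0141). No arrays overlapped. The others, named after their values were seen, were the Myc genes myca (-0.97 ± 0.24, 0.0454) and mycb (-0.67 ± 0.17, 0.0470), which drive growth, and e2f4 (-0.42 ± 0.11, 0.0497), an E2F factor that represses cycle genes.

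CDK inhibitors, which hold back the cycle, were listed by cdkn symbol, and not all genes so named are inhibitors. Of 11 listed genes 6 were on the array, and 0 of these 6 rose or fell with Hif-1. No probe was matched to cdkn1a, cdkn1cb, cdkn1d, cdkn2a/b or cdkn2d, so inhibitors as a class were not covered. cdkn1ba differed by 0.32 ± 0.17 (adjusted p = 0.239), cdkn1bb by 0.20 ± 0.17 (0.477), cdkn1ca by 0.04 ± 0.21 (0.930), cdkn2c by 0.05 ± 0.13 (0.829), cdkn2aip by -0.03 ± 0.11 (0.885) and cdkn3, a phosphatase of CDKs, by -0.52 ± 0.19 (0.116). cdkn3 passed with the block (0.0358). With Hif-3, 0 of 6 passed and cdkn3 differed by -0.60 ± 0.19 (0.603).

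Against the GFP controls, no gene of the 97 passed in Hif-3 embryos. Of the 97 members 0 rose and 0 fell (limma; 1 had an unadjusted p under 0.05, of 1191 among all genes), where 0.00511% of all genes rose and 0% fell. With the replicate number as a block 0 passed as well, and 8 (8.25%) had an unadjusted p under 0.05, against 12.6% of all genes. The S phase median was -0.10, the mitosis median 0.01 and the all-gene median 0.02, and 27 of 35 S phase genes had a difference below 0, against 46.0% of all genes. The S phase median lay below the mitosis median in all 22 alternatives, by 0.04 to 0.16. The arrays were separated with Hif-3 lower for 1 S phase gene and with Hif-3 higher for 0, where 4.32% and 7.03% of all genes were.

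The replication genes described above had these levels with Hif-3. rrm1, measured on 2 Hif-3 arrays, stood at 5.16 and 4.97 there, and differed from GFP controls by -0.28 ± 0.18 (adjusted p = 0.870). mcm2 stood at 5.89, 6.16 and 6.08 and differed by -0.19 ± 0.12 (0.870), and mcm5 at 5.48, 5.50 and 5.32, a difference of 0.04 ± 0.15 (0.989). pcna stood at 2.74, 2.72 and 2.46 and differed by -0.17 ± 0.23 (0.941). The Hif-3 values for these genes overlapped the controls.

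By family the Hif-3 medians against the GFP control were -0.05 for mcm2 to mcm7, -0.33 for the 6 orc genes, -0.19 for the 5 rfc genes and -0.11 for the 6 polymerase subunits. The orc genes ranged from -0.40 to 0.11 and the rfc genes from -0.25 to -0.08. No gene of these families passed (adjusted p = 0.843 or higher). The mitotic kinases had a median of 0.01, and the cyclins D and E of 0.26.

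The smallest p of any member for Hif-3 against GFP control belonged to cdc42ep2. It stood at -2.54, -2.82 and -2.59 in Hif-3 embryos, above all controls, and differed by 0.69 ± 0.19 (adjusted p = 0.517). ccnb1l stood at -3.78, -4.64 and -4.23 in Hif-3 embryos and differed by 0.46 ± 0.22 (0.836). For ccnd3 the difference was 0.45 ± 0.21 (0.825). These genes were higher than controls on all Hif-3 arrays, and they are those that rose with Hif-1; the comparisons share their control arrays.

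Tested directly, Hif-3 and Hif-1 embryos differed in 0 members (limma; 32, or 33.0%, had an unadjusted p under 0.05, against 3719 of all 19551 genes), where 0.189% of all genes were higher in Hif-3 and 0.737% lower. The S phase median of Hif-3 minus Hif-1 was 0.34 and the mitosis median 0.20, against 0.03 for all genes. The arrays were separated with Hif-3 higher for 19 of 35 S phase genes and with Hif-3 lower for 0, where 15.5% and 11.3% of all genes were. Differences with the smallest p were those of cdk8 (0.78 ± 0.17, adjusted p = 0.0731), rrm1 (0.87 ± 0.18, 0.0789), mcm6 (0.56 ± 0.13, 0.0854) and mcm7 (0.57 ± 0.13, 0.0874). With the replicate number as a block 4 members were higher in Hif-3, namely mcm7, cdk8, cdc42 and cdc42se2 (adjusted p = 0.0390 to 0.0499, where 1.9% of all genes passed), and cdk5rap3 was lower (0.0432, where 2.65% passed). cdc42se2 and cdk5rap3 are named after their values were seen. cdc42se2 is a dim signal, not well above background on every array, so it adds little to this count. For Hif-3 minus Hif-1 its other probe differed by -0.34, against 0.77 for the probe used. Of the wider lists tipin, pole, smc2 and chek2, and myca and skp2, named after their values were seen, were also higher in Hif-3 with the block and did not pass without it.

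Of the 15 members that rose or fell with Hif-1, 11 had other probes, 18 in all, of which 17 had the same sign and 8 passed on their own. pola2, orc5, cdk8 and ccnb1l had no other measured probe. Probes of a gene read the same RNA, so they are not separate evidence on the groups, and the share over all genes is not given here. The uncalled genes with a passing other probe were aurkaip1, mcm3l and pcna.

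Markers of the embryo's tissues were present in all groups, and some of them moved too. Of 10 oocyte and germ cell genes 6 rose with Hif-1. Among them was ccna1, the cyclin left out of the members, which rose by 1.46 ± 0.21 (adjusted p = 0.00995). The summed linear level of the list was 6.23 to 8.66 on Hif-1 arrays, 4.96 to 7.11 on Hif-3 arrays and 5.65 to 6.08 on GFP control arrays. Such sums are weighted to the brightest genes of a list. Here zp3b and zp2.1, the brightest in the controls and named after their values were seen, differed by -0.20 and -0.35 without passing. Of 7 endoderm and yolk layer genes 3 rose, namely mxtx1, hnf4a and mxtx2, and with the block foxa3 did too. mxtx2 lay well above background on all 3 Hif-1 arrays but on 1 of 3 Hif-3 and 1 of 3 GFP control arrays. Since mxtx2 was kept only through the group where it is higher, its rise is no support for either count. sox17, which did not pass, was also kept only through Hif-1. The sums were 12.6 to 18.4 on Hif-1, 9.67 to 12.2 on Hif-3 and 7.23 to 10.3 on GFP control arrays. Epidermis genes summed to 1202 to 1405 on Hif-1, 1065 to 1123 on Hif-3 and 913 to 1038 on GFP control arrays, and 2 of 8 rose. Of 13 somite and muscle genes 2 fell with Hif-1, with sums of 95.3 to 136 on Hif-1, 123 to 175 on Hif-3 and 126 to 201 on GFP control arrays. Neural genes summed to 82.0 to 85.9 on Hif-1, 93.4 to 101 on Hif-3 and 89.1 to 92.8 on GFP control arrays, and 0 of 11 passed. Of 6 genes listed as notochord 1 rose, namely shhb (0.86 ± 0.19, adjusted p = 0.0303), named after its value was seen. For the others, tbxta, noto, shha, col2a1a and col8a1a, the Hif-1 arrays overlapped the controls. None of the 6 blood and vessel genes passed. With the replicate number as a block 6 somite and muscle genes, 1 neural gene and 1 blood and vessel gene fell with Hif-1. In the same fit 7 oocyte and germ cell, 4 endoderm and yolk layer, 4 epidermis genes and 1 notochord gene rose. Over all genes tested 3.77% fell and 5.73% rose with Hif-1, and with the block 10.9% fell and 11.7% rose. The 1 neural, 1 blood and vessel and 1 notochord gene are near those blocked shares. With Hif-3, 0 genes of any of these lists passed against the GFP control, with or without the block. ncam1a, etv2, kdrl, apoba, piwil2 and buc were not measured. Whether these shifts in tissue markers have a part in the S phase result was not tested.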

How the data were processed

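RNA of 9 pools of 60 whole zebrafish embryos was hybridised to 9 single-colour (Cy3) arrays, 3 per group. Per the file headers the deposited intensity of each spot is the processed signal of Feature Extraction 10.7.3.1, background-subtracted and detrended but not normalized between arrays. Per the file headers, other deposited columns are flags of 0 or 1 (above background, outlier, saturated) and probe names. The authors' deposited value table is on a log2 scale with nearly equal quantiles on all arrays; its normalization is not given in the sources used here, and per the labels' design text GeneSpring 11.0 was used. Groups were taken from the labels.

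From the files, log2 signals were centred on each array's 75th percentile over non-control probes, outlier spots left out, and probes kept where well above background on all 3 arrays of any group (31120 of 43603). The brightest kept probe stood for a gene. RefSeq accessions named 25069 probes; 10642 of 19551 tested genes and transcripts had a symbol. limma 3.58.1 (R 4.3.3) fitted 1 mean per group over all 9 arrays, with two-sided p-values adjusted by Benjamini-Hochberg over the 19551, in 3 comparisons. Probe values come from the same fit per probe. The procedure was tested on simulated data. The groups share replicate numbers in the labels. All 9 same-numbered pairs of arrays correlated in their deviations from the group means, at 0.109 to 0.583, so the numbers were taken to pair the arrays and were also fitted as a block. The members, lists and tests were chosen with earlier results of these data known. Named genes are those that passed, the 4 with the smallest p for Hif-1 in each role, and a list of core replication and cycle genes. Up to 6 passing genes of the wider lists and the measured cdkn genes are named too. Others are said to be named after their values were seen. The alternatives tried were other background corrections, scalings, filters and probe rules, the deposited table, scan day, and leaving out each array; slide as a random block was added after seeing the data.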

Additional observations from a re-analysis of the deposited data

How the results depend on the processing

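The S phase median of Hif-1 against GFP control stayed below 0 in all 22 alternatives, from -0.54 to -0.29. It was below the mitosis median in all of them, while the number of genes past the threshold varied. The median of all genes moved as well, so 0 is not a fixed reference. With normexp and the 75th percentile the S phase median was -0.29 and that of all genes -0.20, against -0.42 and -0.01 in the main fit. Median centring put all genes at -0.12. Against 12 genes lower with Hif-1, there were 25 with the replicate number as a block, 21 with median centring, 6 with slide as a random block, 2 with only the groups compared, 2 with no filter on dim probes, and 0 with normexp and the 75th percentile, with the scan day as a block or within scan day 3; leaving out 1 array gave 1 to 21. Against 3 genes higher there were 5 with the block and 0 with normexp and the 75th percentile, the scan day block or within scan day 3, and 0 to 3 with 1 array left out. Over all genes, those that rose or fell with Hif-1 numbered 1857 in the main fit. They numbered 4403 with the replicate number as a block, 2242 with median centring and 1314 with slide as a random block. They numbered 695 with only the groups compared, 705 with no filter, 5 with normexp and the 75th percentile and 4 with the scan day block. The counts of lower members went up or down with those of all genes, though not in proportion. The counts over all genes join both directions, where the member counts are given by direction. The mitosis median was -0.0888 with normexp and the 75th percentile and -0.36 with median centring, against -0.25. For ccnb1l, Hif-1 against GFP control gave -0.0071 under that normexp setting (adjusted p = 0.997), against 1.25. For Hif-3 against Hif-1, against 0 genes, 4 were higher with the block and 4 with normexp and quantile normalization, 0 to 3 with 1 array left out (3 without GFP control replicate 2), and 1 was lower with the block. Over all genes, 889 passed in that comparison with the block, 368 with normexp and quantile normalization and 281 without GFP control replicate 2, against 181. The S phase median of Hif-3 minus Hif-1 was 0.19 with normexp and the 75th percentile and 0.41 with median centring, against 0.34. The mitosis median was 0.074 with normexp and the 75th percentile, against 0.20. The causes were not tested. For Hif-3 against GFP control 0 members passed in all 22 alternatives. The block is described beside the results it changed; all 15 genes that passed for Hif-1 passed with it too. Signal near background limits orc5 and cdc42se2, which have no value where all arrays had to be well above background.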
